A study of Mus musculus with 5 samples.

Results

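The nuclear genes of the mitochondrial respiratory chain and of the ATP synthase were described in mouse forelimb buds at E11.5. The members were all genes whose array symbol begins with Nduf, Uqcr, Cox4, Cox5, Cox6, Cox7, Cox8 or Atp5, together with Sdha, Sdhb, Sdhc, Sdhd and Cyc1. This rule gave 91 of the 18193 genes measured, with 180 of the 45037 probe sets tested. A probe set is a group of short array probes that reads 1 transcript, and each gene was read by its brightest probe set, the one with the highest mean log2 intensity over the arrays. The 91 genes were 42 of complex I, 4 of complex II, 9 of complex III, 19 of complex IV and 17 of the ATP synthase.

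RNA came from 2 double mutant forelimb samples (Sost-/-; Sostdc1-/-) and 3 wild type ones, all at E11.5 on the C57Bl/6 strain, and the labels state that no embryos were pooled. Sclerostin, the product of Sost, restrains Wnt signalling from outside the cell, and its paralogue Sostdc1 encodes a secreted inhibitor that also acts on BMP signals. The labels describe neither allele beyond its name. The only comparison the design allows is double mutant against wild type, and each difference below is the double mutant mean minus the wild type mean, in log2 units.

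The respiratory chain passes electrons from NADH and succinate to oxygen and pumps protons across the inner mitochondrial membrane, and the ATP synthase uses that proton gradient to make ATP. Complex I accepts electrons from NADH, complex II (succinate dehydrogenase) from succinate, complex III passes them from coenzyme Q to cytochrome c, and complex IV (cytochrome c oxidase) passes them to oxygen. Every complex except complex II also holds subunits encoded in mitochondrial DNA, which were not analysed here. Several complex IV subunits exist as ubiquitous forms and as forms typical of muscle, lung or testis.

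Promoter sequence is shown first because many of the members, though not all, hold regulator words there, a feature that the rule did not use. RefSeq promoter windows (build GRCm38.p6, from 250 bases before the start site to 50 after it) were matched for 74 of the 91 genes. They were searched on both strands for 3 words: the NRF1 word, which is GCGCA and GCGC with 1 base of any kind between them; CCGGAAG, an ETS word that GABP, also called NRF2, can bind; and AANATGGCG, a YY1 word. NRF1, GABP and YY1 are known regulators of genes for mitochondrial proteins. The 5 windows below are the 250 bases before the start site, 5′ to 3′ on the strand of the gene, with word matches in capitals. Sdha and Cox6a1 show repeated NRF1 words, Ndufa8 and Ndufaf1 belong to genes that differed between the genotypes, and Cox7c is the gene with the largest difference on a brightest probe set among the members.
Sdha: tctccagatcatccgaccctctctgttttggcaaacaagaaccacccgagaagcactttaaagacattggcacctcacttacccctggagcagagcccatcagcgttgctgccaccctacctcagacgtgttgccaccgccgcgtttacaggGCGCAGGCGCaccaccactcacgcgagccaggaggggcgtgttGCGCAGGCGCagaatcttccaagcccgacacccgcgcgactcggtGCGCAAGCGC
Cox6a1: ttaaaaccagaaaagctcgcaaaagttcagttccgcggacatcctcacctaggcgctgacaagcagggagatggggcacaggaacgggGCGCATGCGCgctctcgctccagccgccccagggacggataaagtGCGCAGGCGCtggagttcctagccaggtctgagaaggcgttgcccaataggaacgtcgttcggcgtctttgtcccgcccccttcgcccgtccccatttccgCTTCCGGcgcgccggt
Ndufa8: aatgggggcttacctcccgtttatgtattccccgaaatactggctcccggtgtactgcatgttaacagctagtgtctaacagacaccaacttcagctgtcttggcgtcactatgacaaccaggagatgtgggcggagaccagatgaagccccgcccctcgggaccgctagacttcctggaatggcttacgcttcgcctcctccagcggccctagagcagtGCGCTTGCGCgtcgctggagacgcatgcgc
Ndufaf1: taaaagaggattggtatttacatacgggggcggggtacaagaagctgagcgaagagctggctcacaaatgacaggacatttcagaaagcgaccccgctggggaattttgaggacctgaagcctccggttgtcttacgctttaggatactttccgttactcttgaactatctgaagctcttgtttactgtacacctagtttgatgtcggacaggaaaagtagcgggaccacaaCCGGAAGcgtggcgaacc
Cox7c: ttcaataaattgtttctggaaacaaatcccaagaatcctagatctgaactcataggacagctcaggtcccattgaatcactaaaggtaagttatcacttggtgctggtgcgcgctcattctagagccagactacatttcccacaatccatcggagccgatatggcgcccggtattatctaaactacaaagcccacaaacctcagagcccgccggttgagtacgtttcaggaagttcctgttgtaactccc

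All 5 windows lie on the minus strand of their chromosome. The Sdha window is chr13:74350241-74350490 and holds 3 NRF1 words, beginning 98, 55 and 10 bases before the start site. The Cox6a1 window is chr5:115348959-115349208, with NRF1 words at 162 and 117 bases and an ETS word at 16 bases. The Ndufa8 window is chr2:36049339-36049588, with 1 NRF1 word at 30 bases. The Ndufaf1 window is chr2:119662835-119663084, with 1 ETS word at 18 bases. The Cox7c window, chr13:86046796-86047045, held none of the 3 words. A match describes these letters and is not evidence of binding, and overlaps between words were not removed.

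Over the full window of 300 bases, NRF1 words occurred in 17 of 74 members (23%), against 5.19% of the 27025 genes with a window. ETS words occurred in 19 members (25.7%), against 9.93% of all genes. YY1 words occurred in 10 members (13.5%), against 2.76%. At least 1 of the 3 words was present in 40 members (54.1%), against 15.9% of all genes. The comparison set was every gene with a window, measured on the array or not. It was not matched to the members for level or base composition. Among the members whose brightest probe set differed between genotypes, 3 of 6 lower genes and 1 of 7 higher genes held an NRF1 word, 0 of 6 and 3 of 7 an ETS word, and 2 of 6 and 0 of 7 a YY1 word. No test was run on groups this small.

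The 5 arrays had median linear intensities from 39.4 to 44.4. Over all probe sets the correlation between arrays was 0.991 to 0.995 inside each group and 0.954 to 0.969 across genotypes. Signal for the targeted genes was lower in double mutants on 1 of 2 probe sets each (Sost 1450179_at by a difference of -2.17, limma adjusted p = 0.0091; Sostdc1 1460250_at by -2.35, limma adjusted p = 0.0233), while the other Sost probe set differed by -0.73 (limma adjusted p = 0.237) and the other Sostdc1 probe set by 0.05 (limma adjusted p = 0.775), neither called. All 10 limb mesenchyme markers examined were brighter than the median probe set. The groups also differed in measures apart from the members. The poly-A spike-in Dap averaged 7.09 for the double mutants against 3.30, and the 3′ minus 5′ difference of the Gapdh controls was 0.27 and 0.16 in double mutants against -0.14, -0.10 and -0.06 (two-sided exact permutation p = 0.1, which is the lowest value that 10 splits allow). The same difference of the Actb controls overlapped, at 0.65 and 0.56 against 0.20, 0.24 and 0.68 (two-sided exact permutation p = 0.4). Xist was at 12.37 and 11.75 in the double mutant arrays, which also read the Y-linked Eif2s3y at 8.36 each, whereas each wild type array was high for only 1 of the pair. High signal for both does not match RNA of a single embryo, while the labels state that none were pooled, so how many embryos stand behind each double mutant array is unsettled. Genotype and preparation therefore cannot be told apart in the differences below.

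As a set, the respiratory chain genes were bright and showed small differences in both directions. Their median level was at the 97.4th percentile of all probe sets, and 85 of 91 lay above the median level. limma called 15 of the 91 genes (16.5%) at an adjusted p under 0.05, 8 higher and 7 lower in double mutants, while 14.7% of all genes were called on their brightest probe set (6.56% higher and 8.14% lower). The share of members called was therefore near the background in this fit. With a trended prior or log2(intensity + 16) more members were called, while 14.7% and 15.6% of all genes were. Those counts are given in the last section. Differences were above 0 for 46 members, below 0 for 44 and 0 for 1, Ndufb3, with a median of 0.02 against -0.02 over all genes. The median log2 level of the members in each array was 11.77 and 11.62 in the double mutants against 11.66, 11.64 and 11.69 in wild type, so the double mutant arrays fell on both sides of the wild type arrays.

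The sizes were mostly under 1.5-fold. Of the 91 members, 6 (6.59%) differed by at least 1.5-fold, against 9.82% of all genes, and 2 by at least 2-fold, namely Cox7c and Ndufaf1. For 87 members (95.6%) the 95% interval of the difference lay within a 2-fold change in either direction, against 90.4% of all genes. Arrays of the groups did not overlap in 57 members (29 higher and 28 lower), against 43.2% of all genes (20.2% higher and 23% lower). Among genes with a log2 level of at least 10, a level chosen after values were seen, 59.3% did not overlap and 19.6% were called, and of the 72 members at that level 49 did not overlap and 12 were called. The calls depended on array scaling and on single arrays. Leaving out an array could not change the direction of any of the 15 called genes, because their groups did not overlap. With equal array medians 3 members were called higher and 8 lower, while 4.14% of all genes were called higher and 11.1% lower and the differences of all probe sets shifted by -0.09. With quantile normalization 8 and 5 were called, while 7.51% of all genes were called higher and 7.87% lower. Without double mutant replicate 1 or without wild type replicate 2 no member was called by limma, although all 15 kept their direction and an unadjusted p under 0.05. Those fits made 0 calls over the whole array too, where unadjusted values under 0.05 numbered 14059 and 11115.

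**Figure D1:**
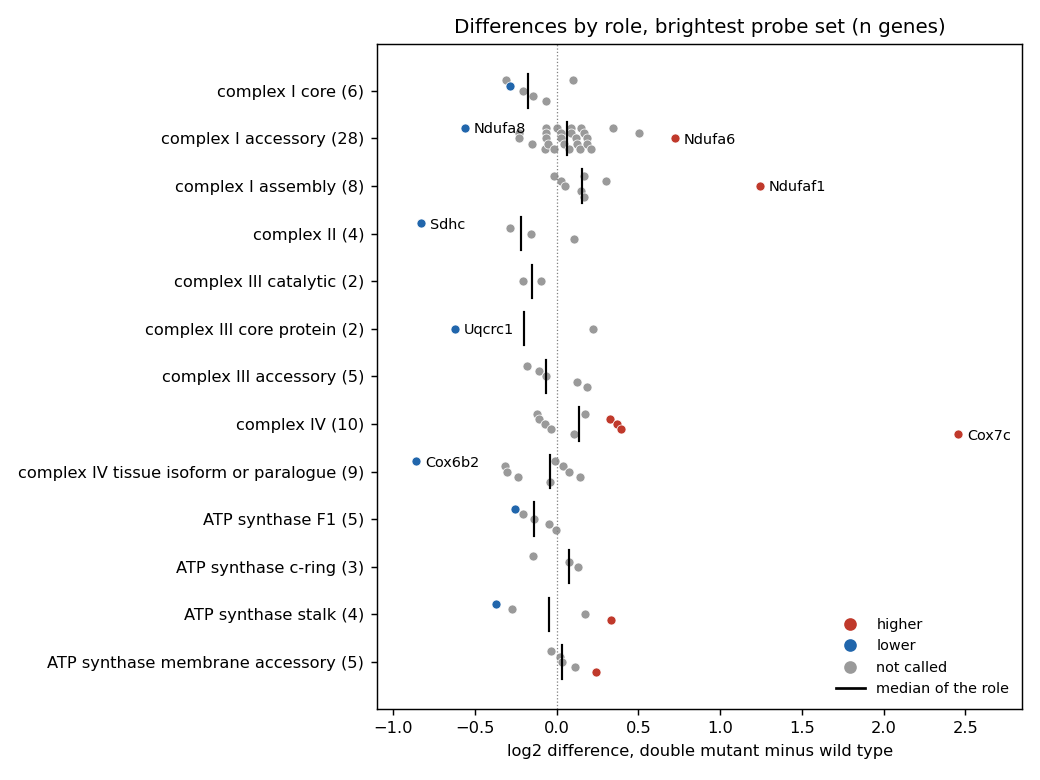
Each point is 1 of the 91 genes on its brightest probe set, placed by its log2 difference (x axis, double mutant minus wild type) and its role (y axis, number of genes in brackets), with called genes in red (higher) or blue (lower) and a black line at the median of the role. Role medians run from -0.22 for complex II to 0.16 for complex I assembly factors. Cox7c at 2.46 and Ndufaf1 at 1.24 stand furthest to the right, and Cox6b2 at -0.86 and Sdhc at -0.83 furthest to the left.

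Complex I, the entry point for electrons from NADH, had 2 genes called higher and 2 lower among 42, with a median difference of 0.05. Its catalytic core, which carries the flavin and the iron-sulfur clusters, was read by 6 genes. Ndufs7, a core subunit with an iron-sulfur cluster next to the coenzyme Q site, was at 11.15 and 11.11 in the double mutants against 11.49, 11.35 and 11.39 in wild type. Both double mutant arrays lay below all wild type arrays, a difference of -0.28 ± 0.06 (SE; limma adjusted p = 0.0487), but its second probe set differed by 0.05 and the call was lost with quantile normalization (limma adjusted p = 0.0656). The other core genes were not called. Ndufs1, the largest core subunit, differed by 0.10 (limma adjusted p = 0.38) and Ndufv1, which binds NADH, by -0.20 (limma adjusted p = 0.171). On their brightest probe sets, 5 of the 6 core genes had a difference below 0 under each of the 3 scalings tried, with a median of -0.17 in the deposited scaling. Not all other probe sets shared this direction. Those of Ndufv1 differed by -0.06 and 0.16, neither called.

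Among the 28 accessory subunits of complex I, 1 was called higher and 1 lower. Ndufa6, an accessory subunit of the LYR family that sits on the matrix arm, was at 11.55 and 11.46 in the double mutants against 10.68, 10.78 and 10.88 in wild type. Its arrays did not overlap and the difference was 0.72 ± 0.08 (SE; limma adjusted p = 0.0121). Ndufa8, an accessory subunit on the intermembrane space side, went the other way, with 10.79 and 10.67 against 11.27, 11.32 and 11.29. That difference was -0.56 ± 0.06 (SE; limma adjusted p = 0.0105). The remaining 26 accessory genes were not called and ranged from -0.23 to 0.50, the upper end being Ndufv3 (limma adjusted p = 0.0627). Ndufc2, with the brightest probe set of the complex, differed by 0.14 (limma adjusted p = 0.214), and Ndufb3 read 11.18 in all 5 arrays.

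Assembly factors of complex I help to build it and are not part of the finished enzyme, and 8 carried Nduf symbols. Ndufaf1, a factor for the membrane arm intermediate, read 9.34 and 9.49 in the double mutants against 8.21, 8.11 and 8.20 in wild type. The difference of 1.24 ± 0.07 (SE; limma adjusted p = 0.00608) was larger than the spread within either group. This gene was called in 8 of 12 other fits, which all use the same arrays, so the count does not measure independent support. The other 7 factors were not called and ranged from -0.02 for Ndufaf7 to 0.30 for Ndufaf4. Of the 8, 7 had a difference above 0 in the deposited scaling, 5 with equal array medians and 8 with quantile normalization.

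Ndufb4 needs separate mention because its brightest probe set with a single symbol read only 3.45 to 3.78 in the 5 arrays, the dimmest of complex I. Probe sets whose annotation also names Ndufb4b and Ndufb4c read 11.10 to 11.34 and were not called. Of 10 probe sets that carried a member's symbol beside another, 1 was called by limma, a probe set of Ndufs6b and Ndufs6 (1433603_at), higher by 0.36 ± 0.06 (SE; adjusted p = 0.025). Which of the named genes such a probe set reads cannot be told apart.

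Complex II is encoded wholly in the nucleus and also acts in the tricarboxylic acid cycle. Sdhc, 1 of its membrane anchors, read 10.15 and 10.42 in the double mutants against 11.15, 11.11 and 11.09 in wild type. The double mutant arrays were both well below wild type, and the difference was -0.83 ± 0.09 (SE; limma adjusted p = 0.0126). The second Sdhc probe set had 7.98 and 8.75 against 9.41, 9.46 and 9.41, a difference of -1.06 that was not called (limma adjusted p = 0.0544). Sdhd, the other membrane anchor, read 10.96 and 11.11 against 10.97, 10.90 and 10.92, with overlapping groups and a difference of 0.10 (limma adjusted p = 0.348). The catalytic subunits were not called. Sdha, which holds the flavin, differed by -0.29 (limma adjusted p = 0.0775; 0.0397 with equal array medians). Sdhb, with the iron-sulfur clusters, differed by -0.15 (limma adjusted p = 0.103).

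Complex III had 1 called gene among 9. Uqcrc1, a core protein of the matrix side, read 11.02 and 11.16 in the double mutants against 11.66, 11.68 and 11.80 in wild type. Both double mutant arrays were lower, by -0.62 ± 0.08 (SE; limma adjusted p = 0.015). Uqcrc2, the partner core protein, read 12.12 and 12.04 against 11.97, 11.82 and 11.78, above wild type in both arrays but not called (difference 0.22, limma adjusted p = 0.147). The catalytic subunits in the set are cytochrome c1, encoded by Cyc1, and the Rieske iron-sulfur protein, encoded by Uqcrfs1. Cyc1 differed by -0.10 (limma adjusted p = 0.359) and Uqcrfs1 by -0.20 (limma adjusted p = 0.0539), and neither was called. Uqcrb, whose probe set was the brightest of all members at 13.56 to 13.84, differed by -0.18 (limma adjusted p = 0.12). Uqcrq, with the dimmest probe set of the complex, differed by 0.12 (limma adjusted p = 0.311).

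Complex IV, where electrons reach oxygen, had 4 genes called higher and 1 lower among 19, beside a background of 6.56% higher and 8.14% lower. All 4 higher genes were among the 10 ubiquitous subunits, but Cox7c was read on a far dimmer probe set than the others. Cox6c read 12.93 and 12.95 in the double mutants against 12.54, 12.63 and 12.67 in wild type. The groups did not overlap, with a difference of 0.32 ± 0.06 (SE; limma adjusted p = 0.0331), and its second probe set gave 0.52 (limma adjusted p = 0.0399). Cox8a, the ubiquitous form of subunit VIII, read 12.09 and 11.98 against 11.58, 11.64 and 11.69, a difference of 0.40 ± 0.06 (SE; limma adjusted p = 0.0243). Its second probe set agreed in sign with 0.31 (limma adjusted p = 0.0283). Ndufa4, named for complex I but assigned to complex IV, read 12.74 and 12.75 against 12.38, 12.37 and 12.37. That difference was 0.37 ± 0.04 (SE; limma adjusted p = 0.0125). With equal array medians Cox6c, Cox8a and Ndufa4 were no longer called, at 0.23, 0.31 and 0.28 (limma adjusted p = 0.19, 0.0852 and 0.0848).

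Cox7c had the largest difference among the members on their brightest probe sets. Its probe set 1459885_s_at read 8.40 and 8.24 in the double mutants against 6.16, 5.83 and 5.60 in wild type, for a difference of 2.46 ± 0.19 (SE; limma adjusted p = 0.0074). Its other probe set, 1459884_at, read 6.01 and 5.98 against 4.65, 4.20 and 4.14, a difference of 1.67 ± 0.18 (SE; limma adjusted p = 0.0117). The arrays separated on both. The gene was called in 9 of 12 other fits, more than any other member. All 12 use the same arrays, and some, such as the fit with a 3′ minus 5′ covariate, made 0 calls over the whole array. The count therefore does not measure independent support. Both probe sets were dim, below a log2 level of 10, and differences of over 2-fold on dim probe sets also occurred in other members, as described below.

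The other ubiquitous subunits were not called on their brightest probe sets, with Cox4i1 at a difference of -0.11 (limma adjusted p = 0.242), Cox6a1 at 0.17 (limma adjusted p = 0.151) and Cox7a2 at -0.03 (limma adjusted p = 0.707). Cox6b1 differed by 0.10 on its brightest probe set (limma adjusted p = 0.347). Its second probe set, also bright at a mean level of 12.61, was called lower, at -0.22 (limma adjusted p = 0.0492). Of 9 isoforms or paralogues, only Cox6b2, known as a testis form of subunit VIb, was called. It read 8.20 and 8.51 in the double mutants against 9.15, 9.19 and 9.30 in wild type, for a difference of -0.86 ± 0.12 (SE; limma adjusted p = 0.0172). The forms typical of muscle were dim: Cox6a2 read 6.24 to 6.73, Cox7a1 3.80 to 4.13 and Cox8b 4.47 to 5.06. Cox4i2, the form typical of lung, read 4.97 to 5.84, Cox7b2 read 3.37 to 3.55 and Ndufa4l2 read 5.02 to 5.04. None of these 6 was called, and for each the 95% interval of the difference lay within a 2-fold change in either direction. Whether these probe sets stood above background was not tested, so a narrow interval need not bound a change of the transcript. Both double mutant arrays lay below wild type for Cox6a2 (difference -0.30, limma adjusted p = 0.154), while the groups overlapped for the others. Cox7a2l, known for a role in respiratory supercomplexes, differed by 0.14 on its brightest probe set (limma adjusted p = 0.11) and by 0.25 on the next (limma adjusted p = 0.0442).

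The ATP synthase had 2 genes called higher and 2 lower among 17, all with differences under 1.5-fold. In the catalytic F1 head, Atp5b, the catalytic beta subunit, read 12.83 and 12.92 in the double mutants against 13.16, 13.13 and 13.10 in wild type. The difference was -0.25 ± 0.05 (SE; limma adjusted p = 0.0433), with no overlap. Atp5a1, the alpha subunit, read 13.00 in both double mutant arrays and 13.25, 13.20 and 13.17 in wild type, and was not called (difference -0.21, limma adjusted p = 0.054). On their brightest probe sets, all 5 F1 genes had a difference below 0 in the deposited scaling and with equal array medians, and 4 of 5 with quantile normalization. Other probe sets of these genes went both ways, and the only one called was lower. Those of Atp5a1 differed by 0.08 and, on a dim one, by -0.63 (limma adjusted p = 0.393 and 0.0179). The second probe sets of Atp5c1 and Atp5d differed by 1.88 and 0.01, neither called.

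In the stalk that holds the head in place, 2 genes were called in opposite directions. Atp5pb, the b subunit, read 12.85 and 13.02 in the double mutants against 12.58, 12.64 and 12.59 in wild type, for a difference of 0.33 ± 0.07 (SE; limma adjusted p = 0.0415). Its second probe set gave 0.07 (limma adjusted p = 0.419). Atp5o, the oligomycin sensitivity subunit at the top of the stalk, read 12.30 and 12.25 against 12.58, 12.65 and 12.69, a difference of -0.37 ± 0.06 (SE; limma adjusted p = 0.0218). Atp5l, the membrane subunit g, read 12.36 and 12.39 against 12.12, 12.11 and 12.17, higher by 0.24 ± 0.05 (SE; limma adjusted p = 0.0358). The proton-carrying c-ring is made from 3 genes for the same mature protein, and none was called. Atp5g1 differed by 0.13, Atp5g2 by -0.14 and Atp5g3 by 0.08, with limma adjusted p between 0.262 and 0.522. With equal array medians Atp5b, Atp5l and Atp5pb were no longer called (limma adjusted p = 0.0527, 0.328 and 0.191), and with quantile normalization Atp5b and Atp5l were not (limma adjusted p = 0.0911 and 0.0544). Atp5md, with the dimmest probe set of the complex, differed by 0.02 (limma adjusted p = 0.783).

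**Figure D2:**
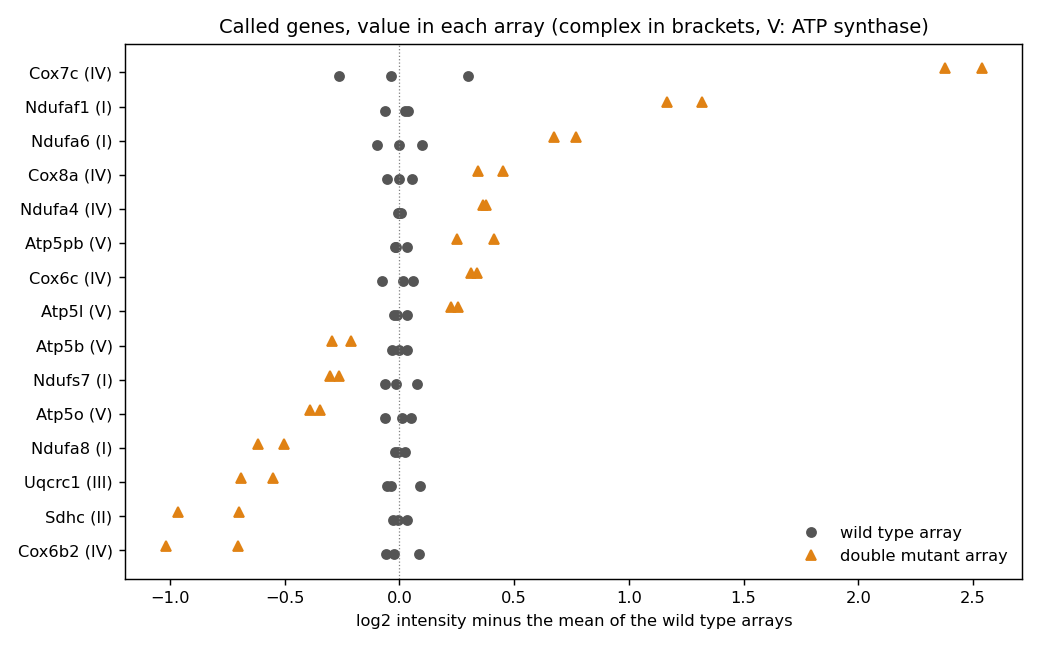
The 15 called genes are ordered by difference, with the complex in brackets, and each point is 1 array placed by its log2 intensity minus the wild type mean (x axis). Triangles mark the 2 double mutant arrays and circles the 3 wild type arrays. The groups are apart in every row, by the most for Cox7c, with differences from -0.86 to 2.46.

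Other probe sets gave a check on the brightest. Of the 91 genes, 51 had several probe sets and 40 had 1. Among the 15 called genes, 7 had another probe set, which was called in the same direction for 3 (Cox6c, Cox7c and Cox8a) and in the opposite direction for 0. Among the 76 genes that were not called, 15 had another probe set that was, and 61 genes had no called probe set at all. Ndufa7, an accessory subunit of complex I, was above 0 on all 5 of its probe sets, from 0.21 to 0.41, with 2 called. Ndufs8, a core subunit with iron-sulfur clusters, was below 0 on all 6 of its probe sets, from -0.31 to -0.0034, with 1 called. The value nearest 0 was that of the dimmest, where the groups overlapped.

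Of the 89 other probe sets, 21 were called (23.6%), 18% higher and 5.62% lower. Over all genes 23.6% of other probe sets were called, 8.66% higher and 15% lower. The ranges differed when these probe sets were split at a log2 level of 10, a level chosen after values were seen. The 49 other probe sets at or above that level had differences from -0.26 to 0.52, with 5 called higher and 2 lower, while 24.9% of such probe sets of all genes were called (7.07% higher and 17.9% lower). The 40 dimmer ones ranged from -1.21 to 3.53, with 11 called higher (27.5%) and 3 lower (7.5%), while 23.6% of such probe sets of all genes were called (8.76% higher and 14.8% lower). Of these 40, 14 (35%) differed by at least 1.5-fold, against 29.4% for all genes at that level. No test of the members against this background was run.

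Single genes show how far dim and bright probe sets of 1 gene could part. For Uqcr10, a small subunit of complex III, the brightest probe set read 11.52 and 11.24 in the double mutants against 11.43, 11.43 and 11.59 in wild type, with a difference of -0.10 (limma adjusted p = 0.561). Its probe set 1434340_at read 7.64 and 7.60 against 4.20, 4.14 and 3.93, a difference of 3.53 ± 0.10 (SE; limma adjusted p = 0.00483). Ndufab1, the mitochondrial acyl carrier protein, differed by 0.03 on its brightest probe set, by -1.21 on 1428160_at (limma adjusted p = 0.0104) and by 2.62 on 1435934_at (limma adjusted p = 0.00527). Sdha differed by -0.29 on its brightest probe set and by 2.21 on the dim 1433293_at, which read 6.37 and 5.80 against 3.93, 3.82 and 3.86 (limma adjusted p = 0.00819). Atp5g2 likewise gave -0.14 and, on a dim probe set, 1.31 (limma adjusted p = 0.00879). Where these probes lie in their transcripts was not analysed here.

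**Figure D3:**
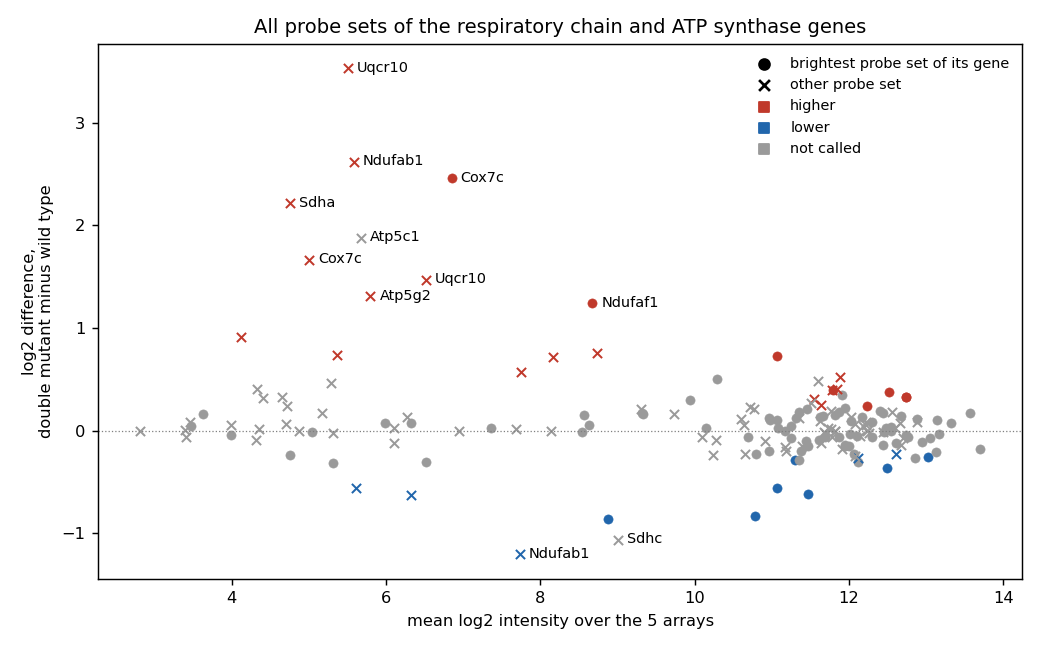
All 180 probe sets of the 91 genes are placed by mean log2 intensity (x axis) and log2 difference (y axis), with circles for the brightest probe set of a gene, crosses for the others and colours for the calls. At a level of 10 or more the points run from -0.83 to 0.72, and all 9 rises of at least 2-fold, such as Uqcr10 at 3.53, lie below it.

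Genes that build, feed or regulate the chain were taken from lists chosen with earlier results of these data known. Of 93 measured genes in 6 lists, limma called 16 (17.2%), 7 higher and 9 lower, near the 14.7% called among all genes. Among 36 assembly factors with other symbols, 3 were higher and 4 lower, with a median difference of -0.05. The lower ones included Atpaf2, which helps to assemble the F1 head (-0.85 ± 0.09 SE, limma adjusted p = 0.0115), Sdhaf2, which attaches the flavin to Sdha (-0.51 ± 0.05 SE, limma adjusted p = 0.0112), and Acad9, a partner of Ndufaf1 in complex I assembly (-0.49 ± 0.05 SE, limma adjusted p = 0.00914). A dim Acad9 probe set differed by 1.37 in the other direction (limma adjusted p = 0.0325). The higher ones were Coa5, Coa6 and Cox16, which serve complex IV, with differences of 0.36, 0.55 and 0.52. A dimmer Coa5 probe set was called in the other direction, with 6.04 and 6.19 in the double mutants against 8.17, 8.16 and 7.32 in wild type and a difference of -1.77 ± 0.31 (SE; limma adjusted p = 0.0306).

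Coenzyme Q and cytochrome c carry electrons between the complexes, and of 13 genes for them 2 were higher and 1 lower. Coq2, which attaches the side chain of coenzyme Q, read 9.97 and 9.84 in the double mutants against 8.77, 8.57 and 8.72 in wild type, for a difference of 1.21 ± 0.09 (SE; limma adjusted p = 0.00714). Coq9, a lipid-binding partner in coenzyme Q synthesis, was higher by 0.25 (limma adjusted p = 0.0395), and Coq8b, an atypical kinase of the same pathway, was lower, at -0.61 (limma adjusted p = 0.00751). The somatic cytochrome c gene Cycs differed by -0.08 (limma adjusted p = 0.437). In the tricarboxylic acid cycle, which supplies NADH and succinate, 0 of 12 genes were higher and 2 lower. Ogdh, of the oxoglutarate dehydrogenase complex, read 8.61 and 8.56 against 9.44, 9.48 and 9.41 (-0.86 ± 0.05 SE, limma adjusted p = 0.00597), but a dimmer probe set of the same gene differed by 0.84 (limma adjusted p = 0.0398). Mdh2, mitochondrial malate dehydrogenase, was lower on both probe sets, by differences of -0.30 and -0.25 (limma adjusted p = 0.0275 and 0.0414). With equal array medians the call on Coq9 was lost (limma adjusted p = 0.304), and with quantile normalization that on the brighter Mdh2 probe set (limma adjusted p = 0.0522).

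Among 7 carriers of nucleotides and phosphate, only Vdac1, the main outer membrane channel, was called, at -0.32 (limma adjusted p = 0.0378). Among 15 genes for upkeep and transcription of mitochondrial DNA, Mterf2 was called, higher by 0.44 (limma adjusted p = 0.0294), and Tfam, which packages that DNA, differed by 0.26 (limma adjusted p = 0.252). Of 10 nuclear regulators, Gabpa was called higher on its brightest probe set, by 0.41 ± 0.08 (SE; limma adjusted p = 0.0372), and lower on its other, by -1.35 ± 0.29 (SE; limma adjusted p = 0.0472). Nrf1 was called lower on its brightest probe set, at -0.81 ± 0.17 (SE; limma adjusted p = 0.0424), and higher on 2 others, by 1.09 and 2.14 (limma adjusted p = 0.0209 and 0.0284). With equal array medians the higher Gabpa call was lost (limma adjusted p = 0.124). Neither regulator therefore has a direction that all its probe sets share.

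**Figure D4:**
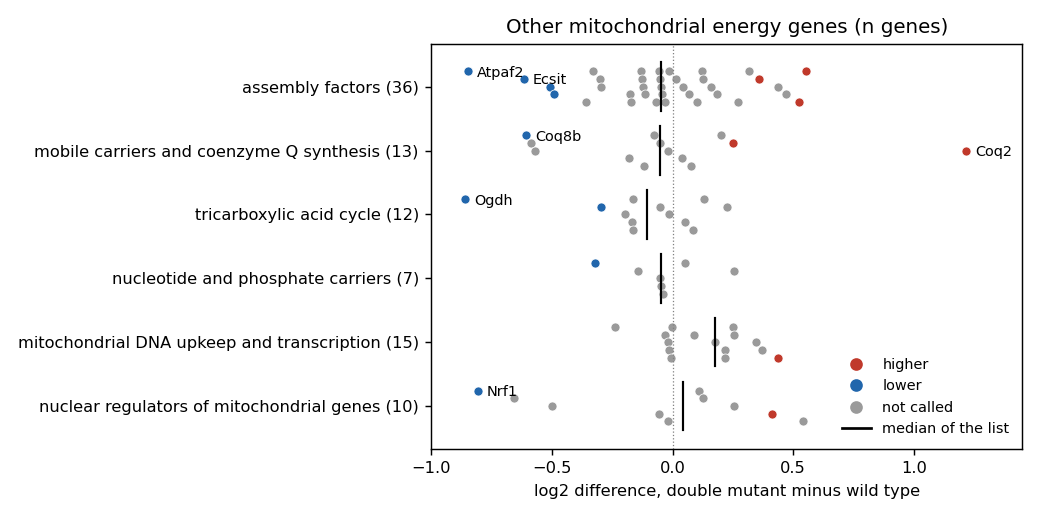
Each point is 1 gene of the 6 related lists on its brightest probe set, placed by its log2 difference (x axis) and list (y axis, number of genes in brackets), with called genes in red or blue and a black line at the median of the list. List medians run from -0.11 for the tricarboxylic acid cycle to 0.18 for mitochondrial DNA upkeep, and Coq2 at 1.21 is the furthest point to the right.

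Some markers of other tissues in the limb bud also differed between the groups. Over all genes, 6.56% were called higher and 8.14% lower. Of 9 ectoderm markers 5 were called higher and 0 lower, with summed log2 levels of 12.51 and 12.49 in the double mutants against 11.91 to 12.06 in wild type. Of 7 endothelial markers 3 were lower (summed level 10.28 and 10.31 against 10.70 to 10.80), of 7 erythroid markers 2 were lower (15.44 and 15.60 against 15.62 to 15.72) and of 10 muscle markers 1 was lower (13.01 and 12.04 against 13.25 to 13.63). The muscle count was near the share over all genes. The muscle markers nevertheless had a median difference of -0.44, with 3 above 0 and 7 below. Of the 10, 5 differed by at least 1.5-fold, against 9.82% of all genes, and 5 had an unadjusted p under 0.05. limma called 0 of 6 cartilage, 0 of 7 macrophage and 0 of 3 neural crest markers, of which 1, 2 and 0 had an unadjusted p under 0.05. Such a value was common, with 14510 of all 45037 probe sets under 0.05. The cartilage markers summed to 11.95 and 11.34 against 12.11 to 12.51. In whole limb buds, fewer cells of a type and less RNA per cell cannot be told apart. The part of these tissue differences, of the spike-ins and of the 3′ to 5′ difference in the results above was not tested. A fit took the 3′ minus 5′ difference of each array, averaged over Gapdh and Actb, as a covariate. These averages were 0.46 and 0.36 in double mutants against 0.03, 0.07 and 0.31 in wild type, so the genotypes did not overlap. The fit therefore cannot separate this difference from genotype. That fit called 0 of all 45037 probe sets and so 0 of the 91 genes. All 15 kept their direction and 11 an unadjusted p under 0.05, as did 9633 of all probe sets.

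**Figure D5:**
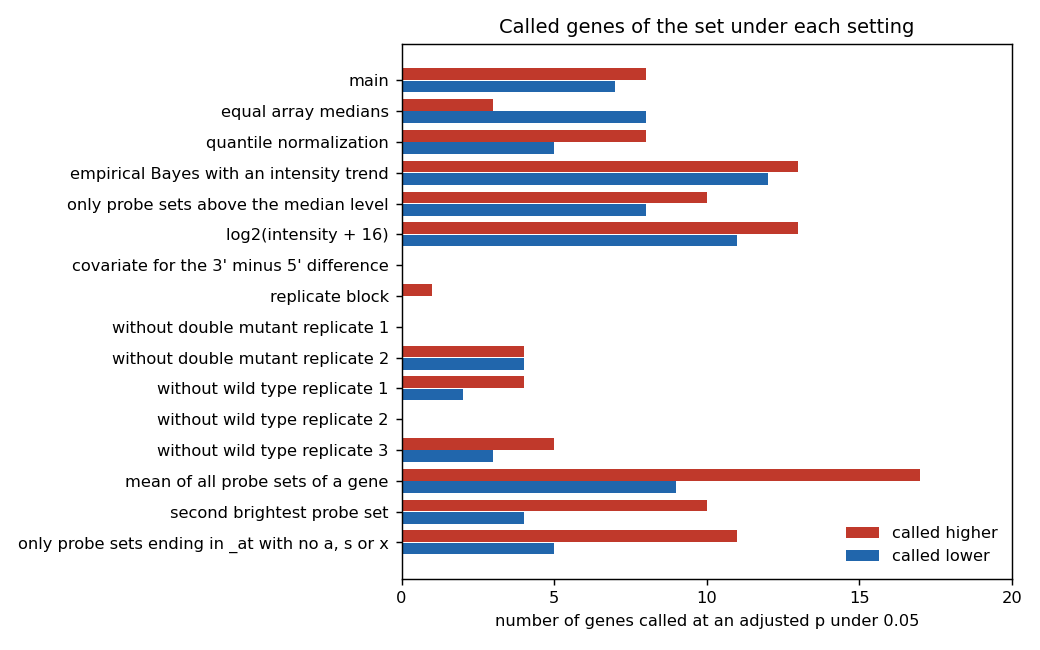
Bars give the number of the 91 genes called higher (red) and lower (blue) at an adjusted p under 0.05 (x axis) under each way of processing the arrays or choosing a probe set (y axis). With the deposited scaling the bars stand at 8 and 7, and the bars are at 0 for the 3′ minus 5′ covariate and without double mutant replicate 1 or wild type replicate 2.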

How the data were processed

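RNA of 5 forelimb samples was read on single-colour Affymetrix arrays after a biotin labelling with a kit of 2 amplification cycles, per the labels' protocols. The deposited values were linear intensities, 1 per probe set and array. RMA and limma are named in the submitters' processing notes, with no version, role or order. log2 was taken and the arrays were not scaled again. Of 45101 probe sets, 64 controls were left out. Symbols came from the platform annotation, and a probe set with several symbols was given to no gene. Where a gene had several probe sets, the brightest on average represented it.

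The genotypes were set against each other in limma 3.58.1 under R 4.3.3 (lmFit and eBayes without trend or covariate, 3 residual and 1.29 prior degrees of freedom), with Benjamini-Hochberg adjustment over all 45037 probe sets and a call at an adjusted p under 0.05. Intervals are 95%. The number of arrays limits the precision. Repeated values in at least 2 arrays occurred in 30 of 91 members and in 0 of the 15 called.

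The members and lists were chosen with earlier results of these data known. Named were, per complex, the called genes whose arrays did not overlap (up to 6 rises and 6 falls), the brightest and dimmest gene, a fixed set of core, c-ring and isoform genes, and up to 3 called genes of every other list. Other names complete a range or count, or were picked with values in view. Other scalings, a trended prior, a filter on dim probe sets, log2(intensity + 16), a 3′ minus 5′ covariate, a replicate block, other choices of probe set and leaving out each array were tried. Same-numbered samples deviated with correlations of 0.089 and 0.12, and nothing in the labels ties the numbers, so no pairs were assumed.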

Additional observations from a re-analysis of the deposited data

How the results depend on the processing

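All 15 called genes kept their direction in the 12 refits on the same probe sets. Only the other scalings and the 3′ minus 5′ covariate could have changed it. In the other refits it was fixed in advance, because the groups of each called gene did not overlap or the differences were the same. The cause of the changes below was not tested, except that fits without an array have fewer samples. In the order higher, lower, complex I, II, III, IV and ATP synthase, the deposited scaling gave 8, 7, 4, 1, 1, 5 and 4 calls. Equal array medians gave 3, 8, 5, 2, 1, 2 and 1, with a median difference of -0.0697 in place of 0.0211. Quantile normalization gave 8, 5, 4, 1, 1, 5 and 2. The trended prior gave 13, 12, 8, 2, 3, 5 and 7, and log2(intensity + 16) gave 13, 11, 7, 1, 3, 6 and 7. The 3′ minus 5′ covariate gave 0 calls over the whole array, and so 0 for members, other probe sets and related genes (21 and 16 in the deposited scaling), while 9633 of all probe sets had an unadjusted p under 0.05. With the replicate number as a block, 1 gene was called higher, Cox7c of complex IV, 0 lower and 0 in complexes I, II, III and ATP synthase, with 3 other probe sets and 2 related genes called. The mean of all probe sets of a gene gave 17, 9, 9, 2, 3, 6 and 6. The second brightest probe set (51 genes) gave 10, 4, 7, 0, 1, 5 and 1, and probe sets ending in _at alone (73 genes) gave 11, 5, 7, 0, 1, 6 and 2. Over all genes the shares called higher and lower were 6.56% and 8.14% in the deposited scaling, 4.14% and 11.1% with equal array medians, 7.51% and 7.87% with quantile normalization, 6.71% and 7.99% with the trended prior, 7.17% and 8.45% with log2(intensity + 16), 0.533% and 0.715% with the block, 7.88% and 13.6% with the mean of probe sets, 6.93% and 16.3% with the second brightest and 6.64% and 8.06% with _at alone. Leaving out each array in turn gave 0 to 5 higher, 0 to 4 lower, 0 to 4 in complex I, 0 to 1 in complex II, 0 to 1 in complex III, 0 to 3 in complex IV and 0 to 1 in the ATP synthase, with 0 to 10 other probe sets, 0 to 12 related genes and a median difference from -0.01 to 0.03, while 0% to 7.23% of all genes were called. In fits without a double mutant array, the remaining one is assumed to vary like the wild type arrays. Sdha was called with equal array medians, at -0.38 (limma adjusted p = 0.0397). Whether the dim muscle and lung forms of complex IV stood above background was not tested.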
